A study of Drosophila melanogaster with 3 samples.

Results

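The dpr (defective proboscis extension response) and DIP (Dpr-interacting protein) genes of *Drosophila melanogaster* encode cell surface proteins with immunoglobulin domains. Every gene of the count matrices whose symbol is dpr with a number, or DIP- with the name of a Greek letter, was taken. The rule found 32 members, 21 dpr genes and 11 DIP genes, of 17824 genes in all. The rule reads symbols alone and no measured value.

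Dpr and DIP proteins bind each other across the gap between neurons in specific pairs, and each type of neuron carries its own combination of them. In the optic lobe and at the neuromuscular junction, matching pairs are known to guide the choice of synaptic partners and the survival of the cells that find them. In the mushroom body, the brain centre for olfactory learning, dpr12 of γ Kenyon cells and DIP-delta of dopaminergic neurons are a known pair that shapes the outer zones of the γ lobe. Binding partners used to order the results were DIP-alpha with dpr6 and dpr10, DIP-beta with dpr8, dpr9 and dpr21, DIP-gamma with dpr11, dpr15, dpr16 and dpr17, DIP-delta with dpr12, and DIP-eta, DIP-theta and DIP-iota with dpr1 to dpr5.

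The members were measured in single cells of female central brains with the optic lobes removed, sorted by a nuclear GFP under the Mef2(P247)-gal4 driver, which marks Kenyon cells, the intrinsic neurons of the mushroom body. There were 3 libraries with 1 library per group. The day 4 to 6 pool held flies with the deletion dSERT-TMKO, made in the serotonin transporter gene with CRISPR, wild-type (WT) flies, flies fed citalopram (CIT), a blocker of the transporter, and vehicle-fed (VEH) flies. The dSERT-TMKO/WT day 0 pool held newly eclosed flies with that deletion and WT flies. The dSERT16/dSERT4 day 0 pool held flies with dSERT16, a deletion at the start of the gene left by the excision of a P element, and dSERT4, its matched control. All flies carried the driver and chromosomes from wild-type inbred lines. No map from cells to genotypes or drugs was used here, so mutant and control, or drug and vehicle, were not compared, and each value below is the mean of a mixed pool.

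The libraries held 3089 (day 4 to 6), 9404 (dSERT-TMKO/WT day 0) and 3544 (dSERT16/dSERT4 day 0) barcodes with 13183480 to 61833329 unique molecular identifiers (UMIs), and kept cells had medians of 3330 to 7146 UMIs. Cells fell into γ-like, α/β-like and α'/β'-like Kenyon cells, other neurons and glia-like cells by markers that hold no member, and the members were left out of the clustering. Each Kenyon subtype was found in each library, with 1440 to 1879 γ-like, 607 to 1313 α/β-like and 117 to 190 α'/β'-like cells. Other neurons numbered 41, 361 and 113 in the order of libraries given, and glia-like cells formed no cluster of their own in the day 4 to 6 pool (20 were set apart at a finer resolution), and numbered 5783 in the dSERT-TMKO/WT day 0 pool and 162 in the dSERT16/dSERT4 day 0 pool. Summed glial markers in γ-like cells came to 167 CPM (UMIs scaled to a total of 1000000) in the day 4 to 6 pool, 743 CPM in the dSERT-TMKO/WT day 0 pool and 297 CPM in the dSERT16/dSERT4 day 0 pool. The 162 glia-like cells include a cluster of 72 led by trol and Col4a1, with no glial marker and 1 marker listed for haemocytes and fat body among its 10 leading genes. Their cluster of 74 cells also had no glial marker among its 10 leading genes. The same held for the clusters of 1380, 999, 982 and 539 glia-like cells in the dSERT-TMKO/WT day 0 pool. In each of these clusters 3 or 4 of the 11 listed glial markers were detected. Glia-like values thus serve below as background and are not compared between libraries. Between 1 and 11 barcodes were shared by any pair of libraries. The α'/β'-like cluster of the dSERT-TMKO/WT day 0 pool went partly against its name, since ab, a γ marker, stood at 480 CPM in it, against 4.32 and 83.0 CPM in the α'/β'-like cells of the day 4 to 6 and dSERT16/dSERT4 day 0 pools. Tests with and without that cluster's sum are given for dpr11 and dpr5. Without the sum, 46 values of single members kept their call in the tests below, 1 gained one and 1 lost one. All other α'/β'-like results include it.

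Kenyon cells carried most of the dpr genes, and few of the DIP genes, at 10 CPM or more. Summed over the 21 dpr genes, γ-like cells had 5554 CPM in the day 4 to 6 pool, 4629 CPM in the dSERT-TMKO/WT day 0 pool and 6352 CPM in the dSERT16/dSERT4 day 0 pool. In the same order of libraries, which is kept throughout, the sums were 4662, 4057 and 5142 CPM in α/β-like and 5983, 5180 and 6740 CPM in α'/β'-like cells. In every subtype of every library dpr8 was the most abundant dpr gene, with 19.4% to 30.95% of the family's UMIs. The 11 DIP genes together gave 91.7, 78.7 and 114 CPM in γ-like cells, 905, 1229 and 1740 CPM in α/β-like cells and 954, 479 and 993 CPM in α'/β'-like cells. A single DIP gene made up most of each sum: DIP-gamma held 78.0%, 85.9% and 79.0% of the DIP UMIs of γ-like cells, and DIP-kappa 98.3%, 99.3% and 98.9% of those of α/β-like cells. Other neurons had 6834, 5571 and 6752 CPM of the dpr genes and 671, 1305 and 624 CPM of the DIP genes. Of the Kenyon subtypes, only γ-like cells lay below other neurons in the DIP sum of every library.

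**Figure D1:**
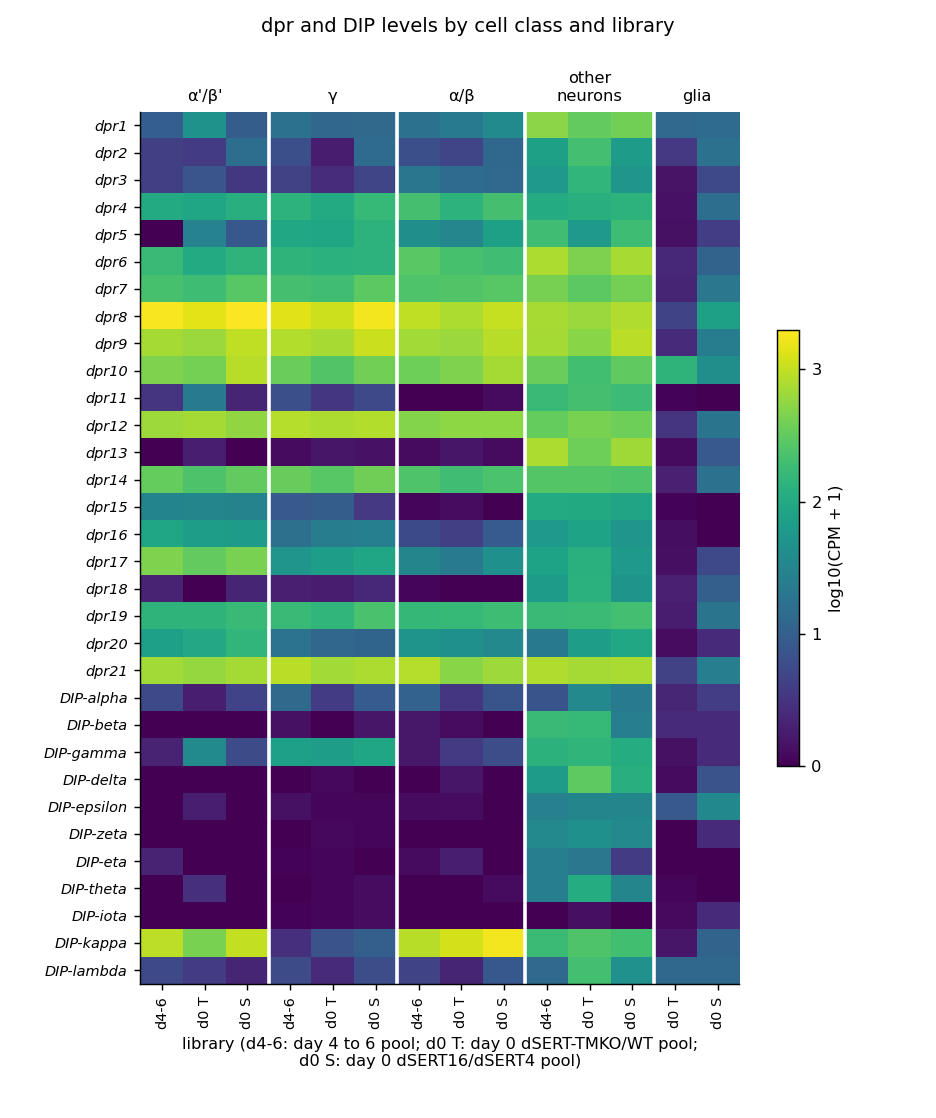
Levels of the 32 members (rows) in each cell class and library (columns), as log10(CPM + 1) of summed UMIs on the colour scale. The rows of dpr8, dpr9, dpr12 and dpr21 are high in every neuronal column, DIP-kappa is high in α'/β'-like and α/β-like cells and low in γ-like cells, and most other DIP rows are brightest in other neurons.

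Of the 21 dpr genes, 15, 15 and 16 reached 10 CPM in γ-like cells and 10, 10 and 11 reached 100 CPM, while of the 11 DIP genes 2, 1 and 1 reached 10 CPM and none reached 100 CPM. In other neurons all 21 dpr genes and 9, 10 and 9 DIP genes reached 10 CPM. At the low end, 8 members had fewer than 30 UMIs over all Kenyon-like cells of the 3 libraries: 18 UMIs for dpr13, 15 for DIP-beta, 11 for DIP-epsilon, 8 for DIP-eta, 6 for DIP-theta, 4 each for DIP-delta and DIP-iota, and 3 for DIP-zeta. The receptors of the dpr8, dpr9, dpr21, dpr12 and dpr1 to dpr5 ligands, which Kenyon cells did carry, were thus at the edge of detection in the same cells.

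A single Kenyon cell held several members at once. With each cell thinned to 2000 UMIs, to set classes of unlike depth side by side, γ-like cells had a UMI of a mean of 5.998, 5.32 and 6.3997 members, α/β-like cells of 6.18, 5.85 and 6.74 members, and α'/β'-like cells of 7.09, 6.18 and 7.39 members. Other neurons held 8.18, 8.14 and 7.89 members and the glia-like cells of the day 0 pools 0.172 and 0.468. Thinning left out 51, 24 and 318 γ-like cells, 56, 37 and 141 α/β-like cells, 0, 0 and 25 α'/β'-like cells, 3, 7 and 8 other neurons and 473 and 36 glia-like cells. Without thinning the γ-like means were 10.1, 9.38 and 8.43 members. In cells thinned to 2000 UMIs, dpr8 was seen in 92.5%, 86.6% and 94.8% of γ-like cells, against 0.810% and 4.76% of glia-like cells, and dpr12 in 80.0%, 74.8% and 77.4% of γ-like cells, against 0.433% and 2.38% of glia-like cells. The unthinned medians were 8338, 7378 and 3474 UMIs in these γ-like cells and 6259 and 4041 UMIs in these glia-like cells.

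γ cells, whose axons are pruned and regrown in the pupa, were compared with α/β cells, the last-born subtype, over the 3 libraries with edgeR's quasi-likelihood test on UMIs summed per library and class, with library as a block. The fit held the sums of all 5 classes, other neurons and glia-like cells included, with a shared estimate of the spread. Its p-values thus rest on how levels in all these classes vary over the 3 libraries, and not on γ-like and α/β-like cells alone. The libraries also differ in allele and age. Of the 31 members tested, 7 passed an adjusted p of 0.05 (22.6%), against 7.18% of the 7976 genes tested, 3.44% higher and 3.75% lower. Higher in γ-like cells were 4 members, DIP-gamma and its partners dpr11, dpr15 and dpr16, and lower were 3, DIP-kappa, dpr20 and dpr3. The median size of the log2 fold change was 0.64 over the members and 0.25 over all genes.

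DIP-kappa (2L, bases 13676860 to 13717320 of BDGP6, minus strand), a DIP gene in none of the partner groups above, showed the largest difference. Its level was 1.77, 5.98 and 9.02 CPM in γ-like cells, against 890, 1221 and 1722 CPM in α/β-like cells. The classes did not come near each other in any library, and the log2 fold change of γ over α/β was -7.92 ± 0.76 (SE; edgeR adjusted p 9.61e-05). Per cell, at 2000 UMIs, 0.138%, 1.13% and 1.67% of γ-like cells held a UMI of DIP-kappa, against 77.3%, 86.7% and 95.4% of α/β-like cells. The shares in glia-like cells of the day 0 pools were 0.0942% and 0.794%.

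The DIP-gamma group ran the other way. DIP-gamma, the receptor that pairs photoreceptors with their Dm8 targets through dpr11, had 71.5, 67.6 and 89.9 CPM in γ-like cells, against 0.619, 2.66 and 5.07 CPM in α/β-like cells. It was thus 116-fold, 25.4-fold and 17.7-fold higher in γ-like cells, with 95% counting intervals of 49.3 to 357, 13.3 to 55.8 and 11.3 to 29.7, and passed with a log2 fold change of 5.01 ± 0.69 (edgeR adjusted p 0.00107). These and all other intervals given cover counting error only. Its ligand dpr15 was detected with 88, 89 and 17 UMIs in γ-like cells (7.41, 8.44 and 2.56 CPM) and with 1, 1 and 0 UMIs in α/β-like cells. That is a ratio of 59.9 (10.5 to 2391) in the day 4 to 6 pool, 28.6 (5.003 to 1142) in the dSERT-TMKO/WT day 0 pool and at least 3.19-fold against a floor of 3 UMIs per library in the dSERT16/dSERT4 day 0 pool, and dpr15 passed (edgeR adjusted p 0.000184).

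The other ligands of DIP-gamma were scarcer or less one-sided. In γ-like cells dpr16 had 15.4, 23.7 and 25.7 CPM, against 4.46, 3.25 and 7.999 CPM in α/β-like cells. The lowest γ-like value lay above the highest α/β-like value, and the log2 fold change was 2.02 ± 0.32 (edgeR adjusted p 0.00278, and 0.0518 without the day 4 to 6 pool). dpr11 was rare, with 63, 25 and 29 UMIs in γ-like cells and 0, 0 and 1 UMIs in α/β-like cells. Against the floor it was at least 14.3-fold higher in γ-like cells of the day 4 to 6 pool and at least 2.68-fold higher in those of the dSERT-TMKO/WT day 0 pool, while the dSERT16/dSERT4 day 0 pool gave a ratio of 16.3 (2.71 to 668). Its edgeR adjusted p was 0.0215, 0.264 without the day 4 to 6 pool and 0.132 without the dSERT16/dSERT4 day 0 pool. dpr17 had 50.9, 70.6 and 89.0 CPM in γ-like cells, against 31.3, 22.7 and 44.0 CPM in α/β-like cells, and did not pass (log2 fold change 1.09, edgeR adjusted p 0.160).

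**Figure D2:**
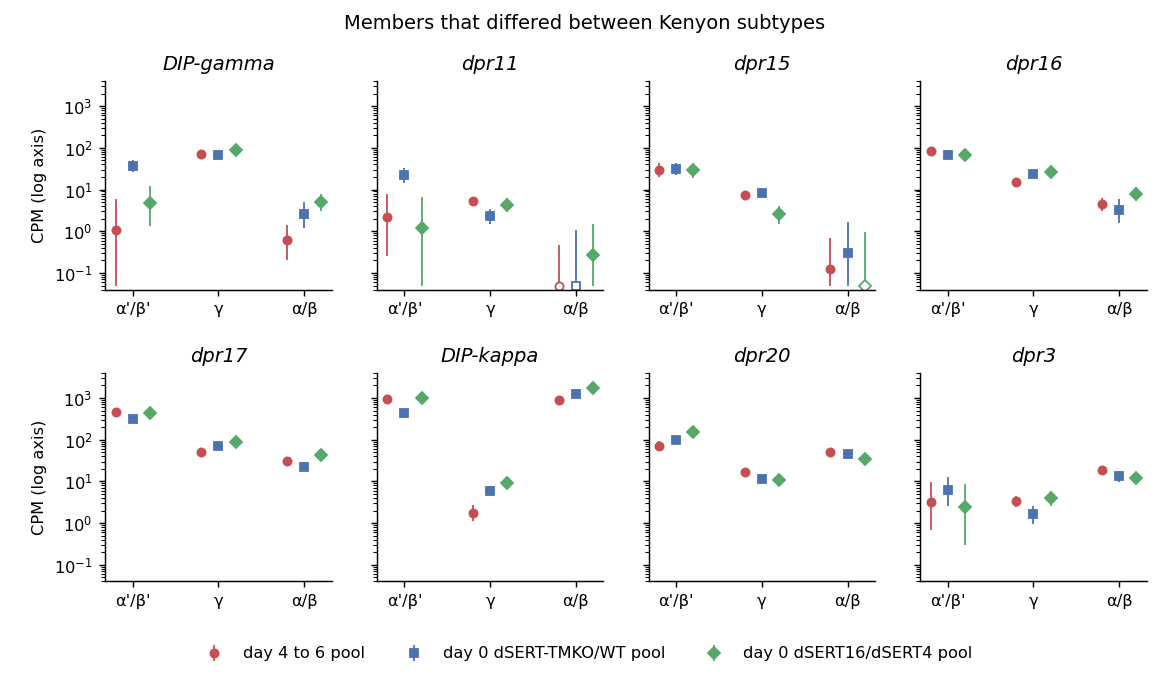
Levels (CPM, log axis) of members by Kenyon subtype, with a point per library and bars for 95% exact Poisson intervals; open symbols at 0.05 CPM mark 0 UMIs. DIP-kappa is lowest in γ-like cells, DIP-gamma is highest in γ-like cells, dpr15 is lowest in α/β-like cells, and dpr17 is highest in α'/β'-like cells in all 3 libraries.

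The remaining calls were lower in γ-like cells. dpr20, also in none of the partner groups, had 17.1, 11.4 and 10.5 CPM in γ-like cells, against 50.3, 44.3 and 35.2 CPM in α/β-like cells, a log2 fold change of -1.71 ± 0.39 (edgeR adjusted p 0.0222). The classes did not overlap, but the adjusted p was 0.0720 without the dSERT-TMKO/WT day 0 pool and 0.0548 without the dSERT16/dSERT4 day 0 pool. dpr3, a ligand of the DIP-eta group, had 3.37, 1.61 and 3.91 CPM in γ-like cells, against 18.9, 13.3 and 12.3 CPM in α/β-like cells (log2 fold change -2.36 ± 0.51, edgeR adjusted p 0.0185, and 0.248 without the day 4 to 6 pool). Counts of calls leaned on single libraries: 4 members passed without the day 4 to 6 pool (2.98% of all genes), 11 without the dSERT-TMKO/WT day 0 pool (9.76%) and 5 without the dSERT16/dSERT4 day 0 pool (5.77%). A fit without the glia-like sums, added after seeing the data, called 14 members, 9 higher and 5 lower, among 14% of all genes.

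α'/β' cells, the smallest subtype, were set against the mean log2 level of γ-like and α/β-like cells. Here 6 of 31 members passed (19.4%), all of them higher in α'/β'-like cells, against 7.64% of all genes tested, 4.4% higher and 3.23% lower. They were DIP-kappa, dpr20 and the DIP-gamma ligands dpr11, dpr15, dpr16 and dpr17. The call of dpr11 rested on the dSERT-TMKO/WT day 0 pool, as given below. In the day 4 to 6 pool dpr11 in α'/β'-like cells was at 0.408 (0.0483 to 1.53) of the γ-like level. No member passed as lower with edgeR, where 1 lower member, dpr5, had an unadjusted p under 0.05 (0.00454), and DESeq2 called 1 as lower. Without the day 4 to 6, the dSERT-TMKO/WT day 0 and the dSERT16/dSERT4 day 0 pools in turn, 4, 8 and 4 members passed, among 1.75%, 11.9% and 4.03% of all genes, and the fit without glia-like sums called 11, 7 higher and 4 lower, among 16.3% of all genes.

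Of the DIP-gamma ligands, dpr17 had the highest level in α'/β'-like cells, though not the largest fold change. It had 457, 321 and 432 CPM in α'/β'-like cells, against 50.9, 70.6 and 89.0 CPM in γ-like cells and 31.3, 22.7 and 44.0 CPM in α/β-like cells. Every α'/β'-like value was thus above every γ-like and α/β-like value, with a log2 fold change of 3.01 ± 0.33 (edgeR adjusted p 0.000333). dpr16 had 86.5, 68.5 and 66.1 CPM in α'/β'-like cells (2.73 ± 0.26 on the log2 scale, edgeR adjusted p 0.000141), again above each γ-like and α/β-like value given before. dpr15 had 30.3, 31.5 and 28.9 CPM in α'/β'-like cells from 28, 35 and 24 UMIs, the steadiest level of the set, and passed with a log2 fold change of 4.92 ± 0.36 (edgeR adjusted p 1.98e-05).

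For dpr15, dpr16 and dpr17 the order of the subtypes was α'/β' over γ over α/β in each library, yet DIP-gamma itself did not follow it. It stood at 1.08, 36.9 and 4.81 CPM in α'/β'-like cells (1, 41 and 4 UMIs), and in the day 4 to 6 and dSERT16/dSERT4 day 0 pools that is 0.0151 (0.000382 to 0.0845) and 0.0535 (0.0145 to 0.138) of the γ-like level. The α'/β'-like cells of those 2 libraries thus held the ligands dpr15, dpr16 and dpr17 at their highest Kenyon levels with hardly any UMIs of their receptor, while γ-like cells held the receptor with lower levels of the ligands.

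DIP-kappa had 943, 436 and 984 CPM in α'/β'-like cells and passed there with a log2 fold change of 3.22 ± 0.49 (edgeR adjusted p 0.00285, and 0.0950 without the day 4 to 6 pool). The contrast averages a high and a near-absent class: set against α/β-like cells alone, α'/β'-like cells were at a ratio of 1.06 (0.987 to 1.14), 0.357 (0.325 to 0.393) and 0.571 (0.531 to 0.615). dpr20 had 72.4, 98.2 and 149 CPM in α'/β'-like cells, above both other subtypes in each library (2.03 ± 0.34 on the log2 scale, edgeR adjusted p 0.00482, and 0.0678 without the dSERT16/dSERT4 day 0 pool). dpr11 had 2, 25 and 1 UMIs there (2.16, 22.5 and 1.20 CPM) and an edgeR adjusted p of 0.0390. That call rested on the dSERT-TMKO/WT day 0 pool: without its α'/β'-like sum the log2 fold change was 1.42 and the adjusted p 0.599, and over all alternatives the adjusted p ranged from 0.0185 to 0.599.

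That cluster was looked at by whether a cell held a UMI of CG8641, a marker of α'/β' cells, a division chosen after seeing the data. Of its 132 cells 101 did and 31 did not, and the cells with it had 23.5 CPM of ab and 285 CPM of Imp, both γ markers, against 1702 and 2692 CPM in the cells without it. dpr11 was found with 0 UMIs in the 101 cells with CG8641 and with 25 UMIs (82.8 CPM) in the 31 cells without. The 1440 γ-like cells of that library together also held 25 UMIs of dpr11, so its level in the 31 cells was far above the γ-like level. What type of cell the 31 cells were was not tested. DIP-gamma divided the same way, with 1.24 CPM with CG8641 and 132 CPM without, and dpr5 with 3.71 and 92.7 CPM, while DIP-kappa had 598 CPM with CG8641 and 3.31 CPM without. Among cells with a UMI of CG8641, dpr17 had 457, 425 and 433 CPM over the 3 libraries.

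Among members with at least 30 UMIs in Kenyon-like cells, dpr5, a ligand of the DIP-eta group, was furthest below the other subtypes in α'/β'-like cells. It had 0, 31 and 6 UMIs there (0, 27.9 and 7.21 CPM), against 95.4, 88.5 and 135 CPM in γ-like and 43.0, 32.8 and 73.1 CPM in α/β-like cells. In the day 4 to 6 pool it was at least 29.4-fold lower than in γ-like and at least 13.2-fold lower than in α/β-like cells, against a floor of 3 UMIs. Its edgeR adjusted p was 0.0564, and 0.00383 (log2 fold change -4.78) without the α'/β'-like sum of the dSERT-TMKO/WT day 0 pool. The members also differed within the other subtypes, and these values are given as descriptions, since the genes that divide the cells were chosen after the clusters had been seen.

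Among α/β-like cells, 120, 47 and 145 held a UMI of rn (rotund, a transcription factor listed here as an α/β marker) and 1193, 560 and 805 did not. dpr17 had 267, 240 and 227 CPM in cells with rn, against 0.700, 1.30 and 4.22 CPM in cells without, so nearly all its α/β-like UMIs came from this minority. dpr16 followed with 36.6, 32.9 and 35.9 CPM with rn and 0.280, 0.324 and 1.95 CPM without. DIP-kappa was also higher with rn, at 1402, 1901 and 2227 CPM, against 823, 1154 and 1612 CPM without, and so was dpr10, at 668, 753 and 1206 CPM against 330, 433 and 610 CPM. dpr20 was lower with rn, at 17.2, 19.7 and 14.97 CPM against 54.6, 46.7 and 39.6 CPM, and dpr6 at 146, 201 and 111 CPM against 306, 220 and 209 CPM. All 6 members kept their direction in all 3 libraries. Cells with rn were deeper, with medians of 7845, 6610 and 4291 UMIs against 6026, 5389 and 3367 UMIs, and CPM is scaled for depth.

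**Figure D3:**
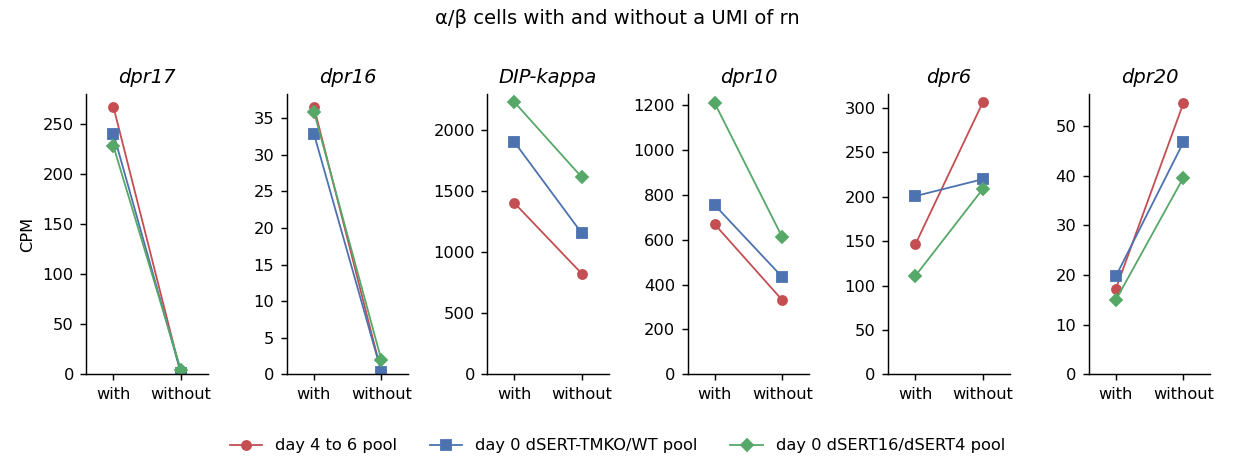
Levels (CPM, linear axis from 0) of members in α/β-like cells with (left) and without (right) a UMI of rn, with lines that join the 2 values of each library. dpr16 and dpr17 fall to nearly 0 without rn in all 3 libraries, DIP-kappa and dpr10 are lower without it, and dpr6 and dpr20 are higher without it.

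In the day 4 to 6 pool, where α/β-like cells formed 3 clusters, the same division was seen between clusters. The cluster of 133 cells with rn among its leading genes had 253 CPM of dpr17, against 0.230 and 1.82 CPM in the clusters of 786 and 394 cells. Between those, dpr20 had 87.9 CPM in the larger and 2.55 CPM in the smaller. The cluster of 133 cells also had the glial genes Obp44a and Gs2 among its leading genes, and at a finer resolution it divided into 112 cells led by rn and 20 glia-like cells led by Obp44a. dpr17 itself stood at 0.365 CPM in the glia-like cells of the dSERT-TMKO/WT day 0 pool.

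Among γ-like cells, 205, 200 and 141 held a UMI of danr, a transcription factor that led a cluster of 320 γ-like cells in the day 4 to 6 pool. dpr1, the founding member of the family, named for its part in the aversion to salt, had 48.2, 37.3 and 29.9 CPM in cells with danr, against 10.9, 7.44 and 10.9 CPM in cells without. dpr15 had 24.4, 29.4 and 13.3 CPM with danr and 4.61, 5.25 and 1.49 CPM without, and dpr20 44.7, 28.7 and 19.9 CPM with danr and 12.6, 8.75 and 9.59 CPM without. DIP-gamma was lower with danr, at 48.2, 24.4 and 46.4 CPM, against 75.3, 74.1 and 94.2 CPM without, and dpr6 was lower as well, at 89.9, 63.8 and 71.3 CPM against 146, 135 and 143 CPM. The receptor and its ligand dpr15 thus moved in opposite directions between these γ-like cells, in all 3 libraries.

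dpr12 was among the most abundant members of every Kenyon subtype. It had 845, 786 and 826 CPM in γ-like cells, against 489, 551 and 545 CPM in α/β-like cells, and 645, 720 and 564 CPM in α'/β'-like cells. γ-like cells were the highest in each library, by 1.73-fold (1.66 to 1.79), 1.43-fold (1.36 to 1.501) and 1.52-fold (1.44 to 1.60) over α/β-like cells. The edgeR test over libraries did not call this difference (log2 fold change 0.64 ± 0.40, adjusted p 0.489), and it did in the fit without glia-like sums (0.62, adjusted p 0.00650). Over its alternatives the adjusted p ranged from 0.00650 to 0.898. Its receptor DIP-delta was nearly absent from Kenyon-like cells, with 0, 2 and 0 UMIs in γ-like, 0, 2 and 0 in α/β-like and 0 in all α'/β'-like cells. In other neurons it had 63.8, 303 and 121 CPM, where dpr12 was present as well, at 332, 431 and 368 CPM.

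DIP-alpha, the receptor that guides Dm4 and Dm12 neurons of the optic lobe and a set of motor neurons, was low in Kenyon-like cells, with 12.7, 2.85 and 8.12 CPM in γ-like cells and 10.0, 2.36 and 6.13 CPM in α/β-like cells. The libraries differed more than the subtypes did. Its ligands, which lie 8.09 kb apart on 3L (dpr6 at bases 9974651 to 10139360 on the plus strand, dpr10 at 10147454 to 10186108 on the minus strand), were both abundant. dpr6 had 138, 125 and 137 CPM in γ-like cells, against 288, 218 and 191 CPM in α/β-like cells (edgeR adjusted p 0.217). dpr10 had 361, 249 and 398 CPM in γ-like cells, against 369, 462 and 716 CPM in α/β-like cells (edgeR adjusted p 0.618), and 455, 402 and 873 CPM in α'/β'-like cells. dpr6 was thus lower in γ-like cells in each library without passing the test, and for dpr10 the classes overlapped.

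The ligands of DIP-beta were all abundant, and dpr8 was the most abundant dpr gene in Kenyon-like cells. dpr8 had 1401, 1113 and 1760 CPM in γ-like cells, against 950, 785 and 1030 CPM in α/β-like cells, and 1852, 1442 and 1883 CPM in α'/β'-like cells. dpr9 had 822, 737 and 1088 CPM and dpr21 904, 685 and 782 CPM in γ-like cells. None of these 3 ligands passed in any of the comparisons of classes, and DIP-beta, a receptor of L4 lamina neurons, had 15 UMIs in all Kenyon-like cells, against 173, 160 and 25.1 CPM in other neurons. dpr8 spans the genes betaNACtes3 and betaNACtes4 on the same strand, and reads that both could claim cannot be told apart here.

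The ligands of the DIP-eta group ranged widely. dpr4 had 137, 102 and 161 CPM in γ-like cells and 208, 136 and 209 CPM in α/β-like cells, next to dpr5 on 3R at a distance of 27.5 kb. dpr1 had 16.2, 11.4 and 12.6 CPM in γ-like cells, against 16.7, 22.4 and 35.5 CPM in α/β-like cells (edgeR adjusted p 0.451). dpr2 had 5.31, 0.759 and 13.2 CPM and dpr3 the values given before. Their receptors DIP-eta, DIP-theta and DIP-iota had 8, 6 and 4 UMIs in Kenyon-like cells. Outside these groups, dpr7, dpr14 and dpr19 had 147 to 388 CPM in every γ-like sum, dpr18 had 31 UMIs and DIP-lambda 176 UMIs over all Kenyon-like cells, and none of the 5 passed between Kenyon subtypes.

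Against other neurons many members were lower in Kenyon-like cells. Of 31 members, 19 passed (61.3%), all lower in Kenyon-like cells, against 31.4% of all genes, 13.7% higher and 17.7% lower. The median log2 fold change was -2.44 over the members and -0.05 over all genes. With edgeR 0 members passed as higher, where 1 had an unadjusted p under 0.05 (dpr12, 0.0217), and DESeq2 called 1 as higher. Other neurons are a mixture of types that passed the same sort, and few were held in the day 4 to 6 pool. In the dSERT16/dSERT4 day 0 pool their cluster of 75 cells had 5 of the 6 Kenyon markers detected, and 51 cells with 1 such marker remained at a finer resolution, where 19 members passed again, among 29.996% of all genes.

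**Figure D4:**
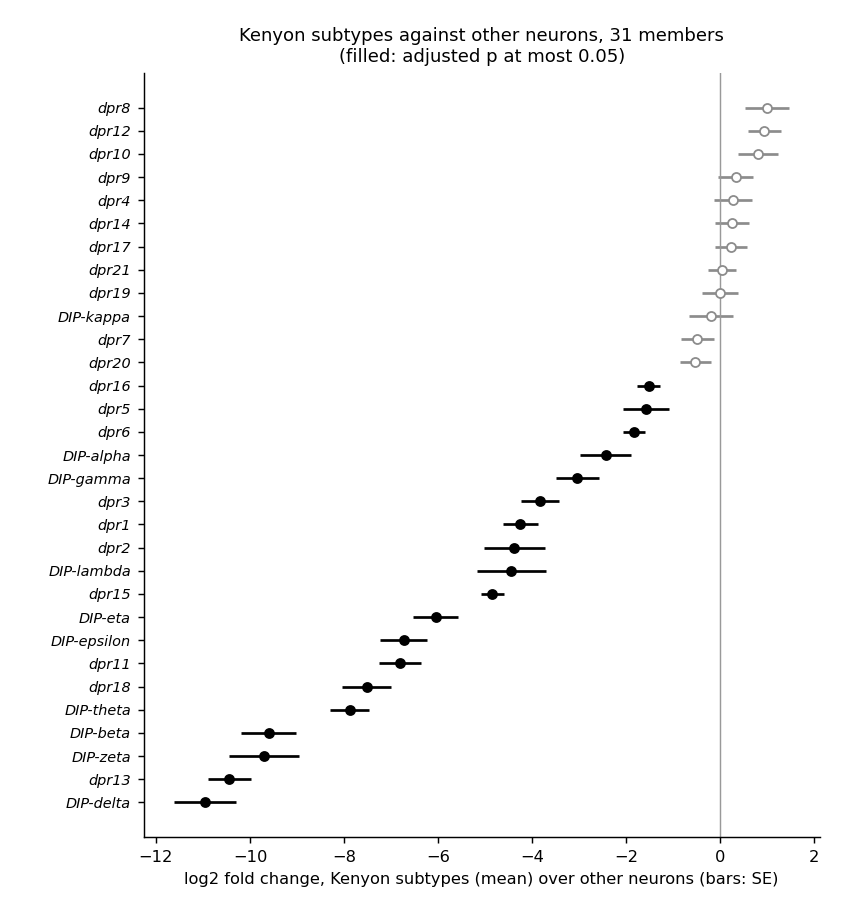
Log2 fold change (x axis, bars for SE) of the mean of the 3 Kenyon subtypes over other neurons for 31 members (rows), filled where the edgeR adjusted p was at most 0.05. All 19 filled points lie left of 0, and dpr8, dpr10 and dpr12 lie right of 0 without passing.

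Of the 10 DIP genes tested, 9 were lower in Kenyon-like cells and DIP-kappa was not (log2 fold change -0.20, edgeR adjusted p 0.793). For DIP-kappa this contrast averages high and near-absent subtypes, so it does not show equal levels. In other neurons DIP-kappa held 26.1% of 671 CPM of DIP genes (day 4 to 6) and 31.9% of 624 CPM (dSERT16/dSERT4 day 0). In α/β-like cells it held 98.3% of 905 CPM and 98.9% of 1740 CPM, while γ-like cells had little, as given before. DIP-alpha passed although the libraries disagreed: it had 6.18, 34.4 and 22.2 CPM in other neurons, from 3, 187 and 23 UMIs, and in the day 4 to 6 pool its 11.3 CPM over Kenyon-like cells was above that. DIP-delta, at 63.8, 303 and 121 CPM in other neurons, had a fitted log2 fold change of -10.95 ± 0.65 (edgeR adjusted p 9.55e-06), a value that depends on the small count added by the fit because most Kenyon-like sums were 0. DIP-gamma was lower in Kenyon-like cells as a whole (-3.04 ± 0.46, edgeR adjusted p 0.000759), with 130, 145 and 111 CPM in other neurons. At 2000 UMIs per cell, 12.8%, 11.8% and 15.6% of γ-like cells and 10.5%, 23.2% and 15.2% of other neurons held a UMI of DIP-gamma, against 0.0565% and 0.794% of glia-like cells. The remaining DIP genes were at 24.7 to 111 CPM (DIP-theta), 26.8 to 31.9 CPM (DIP-epsilon), 34.8 to 44.3 CPM (DIP-zeta) and 12.4 to 208 CPM (DIP-lambda) in other neurons.

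Among the ligands, dpr13 had 18 UMIs in all Kenyon-like cells, against 785, 367 and 677 CPM in other neurons (log2 fold change -10.44 ± 0.45, edgeR adjusted p 2.08e-07). dpr1 had 533, 317 and 392 CPM in other neurons, and was lower in Kenyon-like cells (-4.25 ± 0.37, edgeR adjusted p 2.29e-05), and dpr11 had 167, 213 and 180 CPM there (-6.81 ± 0.45, edgeR adjusted p 4.03e-06). dpr6 had 789, 444 and 742 CPM in other neurons and was lower in Kenyon-like cells (log2 fold change -1.84 ± 0.24, edgeR adjusted p 0.000326). dpr12, by contrast, was lower in other neurons than in every Kenyon-like sum, by the values given before, with an edgeR adjusted p of 0.0634 (log2 fold change 0.94), and it passed as higher in 7 of the alternatives. The calls of DIP-alpha and dpr5 leaned on single libraries, with an edgeR adjusted p of 0.131 for DIP-alpha without the dSERT-TMKO/WT day 0 pool, and of 0.195 and 0.148 for dpr5 without the day 4 to 6 and the dSERT16/dSERT4 day 0 pools.

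Members not called in any of the 3 comparisons were dpr4, dpr7, dpr8, dpr9, dpr10, dpr12, dpr14, dpr19 and dpr21, and all 9 had 102 CPM or more in every γ-like sum. The other 22 tested members were called in at least 1 comparison. DIP-iota, with 4 UMIs in Kenyon-like cells, fell below the filter on low counts.

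Small clusters led by twz and Lim1, a homeobox gene of other neurons, appeared in 2 libraries, with 14 cells in the day 4 to 6 pool and 38 cells in the dSERT16/dSERT4 day 0 pool. Their members were alike: 1169 and 1136 CPM of dpr13, 1339 and 1381 CPM of dpr6, 1039 and 1188 CPM of dpr9, 552 and 585 CPM of dpr1 and 304 and 352 CPM of dpr5. DIP-delta had 0 UMIs in both, and DIP-kappa 1 and 2 UMIs. The remaining other neurons of the day 4 to 6 and dSERT16/dSERT4 day 0 pools, 27 and 75 cells, had 121 and 206 CPM of DIP-delta and 329 and 337 CPM of DIP-kappa. The type of these neurons was not given a name beyond their leading genes.

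Glia-like cells had little of either family, with 173 and 320 CPM over the 21 dpr genes and 23.6 and 70.8 CPM over the 11 DIP genes. The exception was dpr10 in the dSERT-TMKO/WT day 0 pool, with 80.3% of the dpr UMIs. In the dSERT16/dSERT4 day 0 pool dpr8 was the top dpr gene, with 23.5% (51 UMIs), against 28 UMIs of dpr10. In the 1759 glia-like cells of the dSERT-TMKO/WT day 0 pool led by wun2, e, Gat, Eaat1 and alrm, genes of neuropil glia, dpr10 had 417 CPM, against 1.99 to 3.58 CPM in the other 5 glia-like clusters of that library, and in the dSERT16/dSERT4 day 0 pool it had 26 UMIs (87.6 CPM) in a cluster of 74 glia-like cells. The cluster of 16 cells of that pool that was led by alrm, Gat, wun2 and Eaat1 had 1 UMI of dpr10 (20.5 CPM), too few to set beside the 1759 cells. dpr1 had 48.1 CPM in the cluster of 1380 cells, against 0.855 to 6.27 CPM in the other glia-like clusters of that library, and DIP-lambda 25.3 and 20.1 CPM in those of 1380 and 999 cells. The clusters of 74, 1380 and 999 cells had no listed glial marker among their 10 leading genes. In γ-like cells of the dSERT-TMKO/WT day 0 pool dpr10 had 249 CPM, the lowest of its Kenyon values, and the part of glial RNA in the Kenyon levels was not tested.

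Ages were set side by side without a test, since each pool is 1 library and allele, food and age differ between pools. Between the day 4 to 6 pool and the dSERT-TMKO/WT day 0 pool, 62 entries of a member in a subtype had at least 20 UMIs, and 13 of them (21.0%) were past 2-fold, 8 higher and 5 lower, against 11.5% over all genes. With the dSERT16/dSERT4 day 0 pool as the younger library instead, 7 of 60 entries (11.7%) were past 2-fold, against 13.0% of all genes, so the members' larger share was not seen there. Between the day 0 pools, which share an age, 16 of 63 entries were past 2-fold (25.4%, against 13.1% of all genes), a pair of libraries with no difference in age. Both comparisons have the dSERT-TMKO/WT day 0 pool as their base. In the day 4 to 6 pool the α/β-like clusters of 786 and 394 cells had rk, listed here for α'/β' cells, and no α/β marker among their 10 leading genes, although 4 of the 6 α/β markers were detected in each. Without α/β-like cells, 11 of 42 entries were past 2-fold (26.2%, against 11.2% of all genes).

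**Figure D5:**
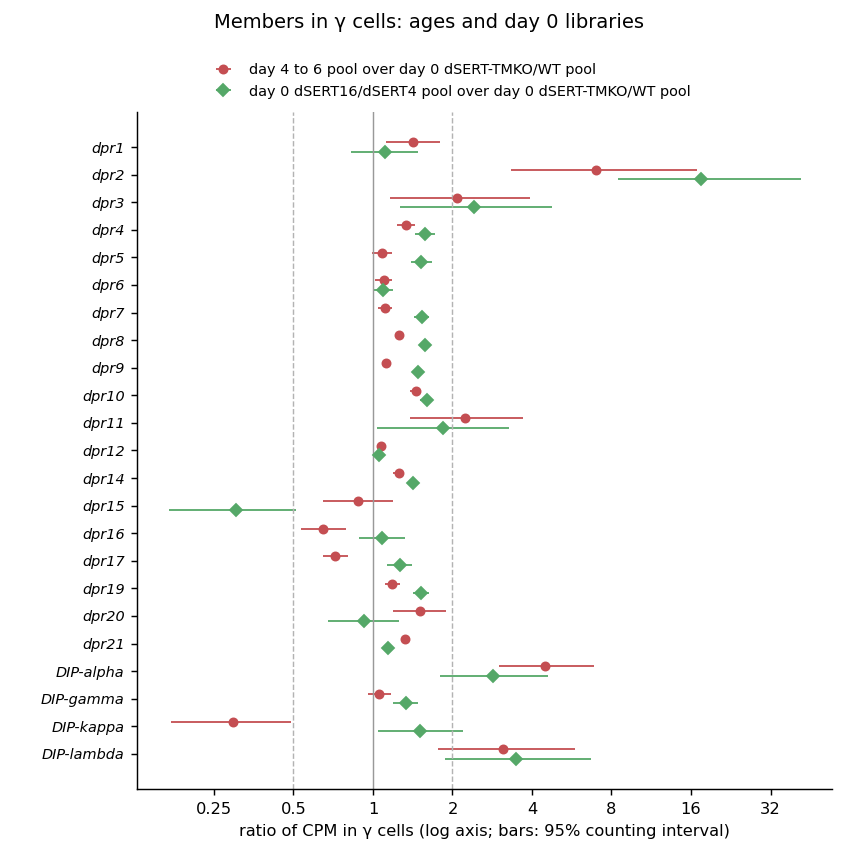
Ratios of CPM (log axis) in γ-like cells for the members with enough UMIs, as the day 4 to 6 pool (circles) and the dSERT16/dSERT4 day 0 pool (diamonds), each over the dSERT-TMKO/WT day 0 pool, with 95% counting intervals and dashed lines at 2-fold. dpr12, dpr8 and DIP-gamma lie within 2-fold in both, dpr2 and DIP-alpha lie past 2-fold in both, and DIP-kappa is past 2-fold lower in the day 4 to 6 ratio alone.

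In γ-like cells DIP-alpha was at 12.7 CPM in the day 4 to 6 pool, against 2.85 CPM in the dSERT-TMKO/WT day 0 pool, a ratio of 4.47 (3.00 to 6.85), and the dSERT16/dSERT4 day 0 pool was at 2.85 (1.79 to 4.62) times that same pool. dpr2 was at 6.99 times it in the day 4 to 6 pool and 17.4 times in the dSERT16/dSERT4 day 0 pool, and DIP-lambda at 3.11 and 3.47 times. For these members the dSERT-TMKO/WT day 0 pool was the low library. dpr12 had a ratio of 1.07 and DIP-gamma of 1.06 (0.957 to 1.17) between the day 4 to 6 and dSERT-TMKO/WT day 0 pools, both within 2-fold.

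DIP-kappa in γ-like cells was lower in the day 4 to 6 pool than in either day 0 pool, at a ratio of 0.296 (0.171 to 0.492) to the dSERT-TMKO/WT day 0 pool and of 0.196 (0.113 to 0.327) to the dSERT16/dSERT4 day 0 pool. These rest on 21, 63 and 60 UMIs at 1.77, 5.98 and 9.02 CPM. This was the only member entry past 2-fold in the same direction against both day 0 pools, 1 of 58 (1.72%), against 4.09% of all genes. The part of α/β-like cells or their RNA in these few UMIs was not tested. In α/β-like cells, given by cluster for the reason above, DIP-kappa had 758, 952 and 1300 CPM in the clusters of the day 4 to 6 pool, against 1221 CPM in the single cluster of the dSERT-TMKO/WT day 0 pool and 1783 and 1579 CPM in those of the dSERT16/dSERT4 day 0 pool. In α'/β'-like cells 5 of 19 members were past 2-fold between the day 4 to 6 and dSERT-TMKO/WT day 0 pools (26.3%, against 10.1% of all genes). They were DIP-kappa, dpr11, dpr5, DIP-gamma and dpr1, and 4 of them were those whose UMIs in the dSERT-TMKO/WT day 0 pool divided by CG8641. The fifth, dpr1, had 8, 54 and 7 UMIs in α'/β'-like cells, and in the dSERT-TMKO/WT day 0 pool 50.8 CPM with CG8641 and 43.1 CPM without, so its high value there was found in both sets of cells.

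Related genes outside the rule gave a measure of other adhesion molecules. Of the 14 listed, Lac, Ama, klg, wrapper, cDIP, CG34353, Fas2, Fas3, Nrg, Dscam1, kirre, rst, hbs and sns, 12 could be tested. Between γ-like and α/β-like cells 1 was higher, CG34353, an immunoglobulin gene (log2 fold change 2.87), and 1 was lower, kirre, known from myoblast fusion (-2.40). In α'/β'-like cells Lac (5.72) and Fas3 (1.99) were higher, and Fas2 (-2.48), Nrg (-1.76) and kirre (-1.92) were lower. Against other neurons Dscam1 and Nrg were higher in Kenyon-like cells, and CG34353, Fas3, hbs, kirre, rst and sns were lower. Fas2 was among the genes that named the α/β-like cells, so its values are no independent result. The 3 counts of 2, 5 and 8 calls of 12 (16.7%, 41.7% and 66.7%, the last with 6 lower) stood beside 7, 6 and 19 calls of 31 among the dpr and DIP genes (22.6%, 19.4% and 61.3%). Over all genes tested the shares were 7.18%, 7.64% and 31.4%.

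The members lie on every major chromosome arm, 9 on 2L, 5 on 2R, 4 on 3L, 8 on 3R, 5 on X and 1 (dpr7) on 4. Of the close neighbours, dpr15 (12138833 to 12158595, minus strand) and dpr17 (12094876 to 12111420, plus strand), 27.4 kb apart on 3R, were both highest in α'/β'-like cells, while dpr17 was present with rn in α/β-like cells and dpr15 had at most 1 UMI in any α/β-like sum. dpr5 (11499984 to 11505951, plus strand) was scarce in α'/β'-like cells, where its neighbour dpr4 (11533483 to 11542949, minus strand) had 104, 85.6 and 121 CPM. DIP-eta (5601723 to 5617946) and DIP-theta (5626291 to 5658560), 8.35 kb apart on the minus strand of 2L, were both near 0 in Kenyon-like cells and at 2.90 to 111 CPM in other neurons. Besides dpr8, the members dpr1, dpr2, dpr6, dpr10, dpr11, dpr16, DIP-alpha, DIP-beta, DIP-epsilon and DIP-theta overlap other genes or noncoding RNAs on their own strand, and dpr3, dpr7, DIP-eta and DIP-lambda overlap mobile elements or other annotated features, so UMIs there are uncertain. UMIs were counted at transcript ends, so levels of different genes do not scale with their length, though capture may differ between them.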

How the data were processed

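The authors deposited UMI count matrices, 1 per library, made from 10x 3′ libraries with Cell Ranger 7.0.0 on the dm6 genome per the submitters' processing notes, which also name Seurat. Another 4 deposited tables hold log2 fold changes and p-values of the authors' own comparisons by cluster and were not used. Barcodes under 1000 UMIs, or over 20% in mitochondrial genes, were dropped, and Scrublet calls were removed as doublets (26, 326 and 5 cells), a share of 0.152% in the dSERT16/dSERT4 day 0 pool, where the caller marked few. Each library was clustered on its own with scanpy 1.11.5 and leidenalg 0.10.2 (2000 variable genes without the members, 10 components, 20 neighbours, resolution 0.3), and clusters were named from listed markers, by a rule on how many were detected that was set after the clusters were seen.

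Raw counts were summed per library and class with at least 20 cells (14 sums), and 7976 genes passing edgeR's default filter were tested with edgeR 4.0.16 (R 4.3.3), quasi-likelihood, TMM scaling, library as a block and Benjamini-Hochberg adjustment over all genes. CPM was computed from the sums. Ages were compared as ratios with exact binomial intervals for members with at least 20 UMIs over both libraries, past 2-fold meaning 2 or more or 0.5 or less. Alternatives were DESeq2 1.42.0, no filter on low counts, no block, leaving out each library, other cell minimums, doublets, clusterings and thinning depths, and 4 added after seeing the data.

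The members and lists were chosen with earlier results of these data known. Values in every library were given for members past the threshold between Kenyon subtypes, up to 12 per comparison, and for dpr12, DIP-delta, DIP-alpha, dpr6, dpr10, dpr1 and DIP-kappa whatever their values, and members under 30 UMIs in Kenyon-like cells were given by UMIs. Splits by rn, danr and CG8641, and members and clusters named outside this rule, were chosen after their values were seen. Gene positions came from the BDGP6 annotation, which matched 17738 of 17824 identifiers.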

Additional observations from a re-analysis of the deposited data

Results flagged for a closer look

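For some members α'/β'-like cells lay above α/β-like cells in some libraries and below in others. Those with counting intervals that left out equal levels in both directions were dpr1, dpr10 and dpr21. DIP-kappa and other members also changed sides, but without such intervals in both directions. The difference between libraries was not tested. The ratio of α'/β' to α/β was 0.517 in the day 4 to 6 pool, 2.17 in the dSERT-TMKO/WT day 0 pool and 0.237 in the dSERT16/dSERT4 day 0 pool for dpr1. For dpr10 it was 1.23, 0.870 and 1.22 in the same libraries, and for dpr21 0.821, 1.16 and 1.09. The α'/β'-like cluster of the dSERT-TMKO/WT day 0 pool held cells with γ markers. dpr1 was as high there in cells with a UMI of CG8641 (50.8 CPM) as in cells without (43.1 CPM), against 22.4 CPM in α/β-like cells, and dpr10 had 454 CPM with and 262 CPM without, against 462 CPM in α/β-like cells. For dpr21 the part of those cells was not tested.

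Clusters of 127 and 73 cells in the dSERT-TMKO/WT day 0 pool received no name and entered no comparison, yet held members above the limit that a count of 0 allows. DIP-epsilon stood out at 83.1 CPM (108 UMIs), against 7.41 CPM in the glia-like cells of that library, with 83.8 CPM in the larger cluster and 81.2 CPM in the smaller. The other members over the limit were low: dpr10 had 9.23 CPM, dpr9 8.47 CPM, DIP-beta and DIP-lambda 6.93 CPM each, dpr12 6.16 CPM, DIP-kappa 4.62 CPM, and dpr2 and dpr8 3.85 CPM each.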

How the results depend on the processing

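No called value of a member changed sign under the alternatives run. Without single libraries, 4 to 11 members passed for γ over α/β (7 in the report), 4 to 8 for α'/β' (6) and 19 to 22 for Kenyon-like cells over other neurons (19), among 2.98% to 9.76%, 1.75% to 11.9% and 17.8% to 26.7% of all genes. Leaving glia-like cells out of the fit, chosen after seeing the data, called 14, 11 and 24 members, among them all 7, 6 and 19, and 14%, 16.3% and 41.8% of all genes. Without library as the replicate block the counts were 7, 6 and 19, and all 48 single values kept their call. The share of all genes called in that fit is not given here, so these counts show only that the calls were unchanged. Ratios past 2-fold between ages numbered 13 of 62 (11.5% of all genes), but 7 of 60 (13.0%) with the dSERT16/dSERT4 pool as the day 0 library and 30 of 81 (11.5%) with cells classed by marker UMIs, also added later, and the cause was not tested. Members per cell averaged 6.07 over the Kenyon sums, 4.02 at 1000 UMIs and 8.28 at 4000 UMIs. Over single members and settings, 573 values kept their call, 28 gained one and 23 lost one. Depth limits the smaller sums, where 3 UMIs equal 2.70 to 3.61 CPM in α'/β'-like cells and 6.18 CPM in other neurons of the day 4 to 6 pool, and with 1 library per age and allele no difference between ages was tested.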
